A study of Mus musculus with 29 samples.

Results

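The mitochondria-encoded genes are the genes carried by the mouse mitochondrial chromosome, as opposed to the nuclear genes whose products are imported into mitochondria. They were taken as the rows of the count table whose Ensembl identifier maps to a mouse symbol beginning with mt-, and 37 of the 38924 genes in the table met that rule. They comprise 13 protein genes, 2 ribosomal RNA (rRNA) genes and 22 transfer RNA (tRNA) genes. The study sequenced polyA RNA of sorted bone marrow populations from C57BL/6 mice that carried a Dnmt3a mutation or were controls. Dnmt3a encodes a DNA methyltransferase that is often mutated in human blood cancers, and the labels name no allele. All mice, controls included, were young and were sampled 6 weeks after pIpC, a synthetic double-stranded RNA commonly used to switch on an interferon-inducible Cre in blood cells. The exact age, the Cre line, the sort gates and any pooling of animals are not stated in the sources used here. The 4 populations were long-term stem cells (LT-HSC, 4 control and 3 mutant libraries), short-term stem cells (ST-HSC, 3 and 4), and the multipotent progenitors MPP3 (3 and 4) and MPP4 (4 and 4), which gave 14 control and 15 mutant libraries in 8 groups.

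The mitochondrial chromosome is a small circle that is copied into long RNAs from both strands, and these are then cut into mature RNAs, largely at the tRNAs that lie between the other genes. Its protein genes encode core subunits of the respiratory chain (complexes I, III and IV) and of the ATP synthase (complex V), and its rRNA and tRNA genes serve the ribosomes that make those proteins inside the organelle. The remaining subunits, and every factor that copies, cuts and translates mitochondrial RNA, come from the nucleus. Long-term stem cells are known for a low reliance on respiration compared with the progenitors they give rise to.

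Library totals ran from 6133994 to 10374672 counts, with a median of 8154515. Nothing in the labels says that the libraries of a group came from separate animals, so every p-value below measures the spread between these libraries, which may be technical. In bulk RNA of this kind, fewer cells of a type and less RNA per cell cannot be told apart. Dnmt3a was read in all 29 libraries, at 81.9 to 167 CPM (library-normalised counts, with TMM factors) in control libraries and 92.2 to 222 CPM in mutant libraries. The kind of mutation is not stated, so this level checks no label. The defining markers followed the labels for the progenitors: the summed level of 8 myeloid genes was 4277 to 11203 CPM in MPP3 and 26.8 to 1163 CPM in the other populations, and that of 7 lymphoid genes was 1287 to 1613 CPM in MPP4 and at most 424 CPM elsewhere. The summed level of 9 LT-HSC genes did not set LT-HSC (910 to 1814 CPM) apart from ST-HSC (1113 to 2333 CPM) or MPP4 (731 to 1013 CPM). MPP3 lay below LT-HSC, at 347 to 747 CPM. The column names of the count table carry either of 2 prefixes, called P (14 libraries) and Q (15 libraries) here, both of which occur in each of the 8 groups. No label says what they stand for.

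Among the members, 12 of the 13 protein genes lie on the plus strand of the reference and mt-Nd6 lies on the minus strand. The tRNA genes divide into 14 on the plus strand and 8 on the minus strand. The ends of the protein genes are shown because a polyA library captures RNA by its end and because neighbours share bases there. On GRCm38 the annotated transcripts of mt-Nd1 (a membrane subunit of complex I), mt-Co1 (the catalytic subunit of complex IV) and mt-Nd6 (a further complex I subunit) carry a full stop codon, given in capitals, at chrM:3684-3707 (plus), chrM:6849-6872 (plus) and chrM:13552-13575 (minus). Those of mt-Co3 (complex IV), mt-Nd4 (complex I) and mt-Cytb (the cytochrome b of complex III) end in a single T, also in capitals, at chrM:9367-9390, chrM:11521-11544 and chrM:15265-15288 (all plus). In mitochondria such a stop codon is known to be completed by the polyA tail.
mt-Nd1: gcgggagtaccaccatacataTAG
mt-Co1: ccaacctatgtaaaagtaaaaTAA
mt-Nd6: attatcgagattactcgagatTAA
mt-Co3: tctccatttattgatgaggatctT
mt-Nd4: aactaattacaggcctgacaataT
mt-Cytb: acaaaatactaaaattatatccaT

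Neighbouring members overlap in 3 places. The genes of the 2 small ATP synthase subunits, mt-Atp8 (chrM:7766-7969) and mt-Atp6 (chrM:7927-8607), share 43 bases, which are in capitals in the last 60 bases of mt-Atp8 (chrM:7910-7969, plus) and the first 60 bases of mt-Atp6 (chrM:7927-7986, plus). mt-Nd4l and mt-Nd4 share 7 bases, and mt-Nd5 and mt-Nd6 share 14 bases on opposite strands. No label states the strand setting of the authors' counting, so reads of such stretches cannot be assigned to a single gene with certainty.
mt-Atp8: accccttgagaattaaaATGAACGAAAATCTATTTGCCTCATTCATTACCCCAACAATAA
mt-Atp6: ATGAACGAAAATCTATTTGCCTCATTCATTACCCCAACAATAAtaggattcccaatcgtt

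Pieces of the mitochondrial chromosome that were inserted into nuclear chromosomes long ago can compete for the same reads. A search of the annotated transcripts found 16 nuclear copies with at least 90% identity over at least 80% of the copy. Of these, 9 have a row in the table that was used, and the other 7 were not analysed here. Those 7 include copies of mt-Atp6, mt-Co2, mt-Co3 and mt-Nd4 at 100% identity over the whole copy. They also include copies of mt-Nd3 (99.7%) and mt-Co1 (99.8%). Whether these affect the counts of their members could not be checked. The copy Gm10222 on chromosome 1 is identical to mt-Nd4l over 294 of 294 bases and lacks its last 3, and its count equalled that of mt-Nd4l in 29 of 29 libraries. The sequences below are the last 60 bases of mt-Nd4l (chrM:10114-10173, plus, with the 3 bases beyond the copy in capitals) and the last 57 of Gm10222 (chr1:24612407-24612463, minus). The value of mt-Nd4l, a small complex I subunit, is therefore uncertain throughout. As the counts are equal, adding that of Gm10222 would raise every library alike and leave ratios between libraries unchanged. No other copy with a row reached more than 0.105% of the count of its member in any library.
mt-Nd4l: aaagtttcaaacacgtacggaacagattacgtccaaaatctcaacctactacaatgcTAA
Gm10222: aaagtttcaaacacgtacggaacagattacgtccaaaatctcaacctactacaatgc

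All 22 tRNA genes, which are 59 to 75 bases long, had a count of 0 in all 29 libraries. A count of 0 allows up to 3 counts, which is 0.289 to 0.489 CPM depending on the library, and covers counting error only. The tRNA for phenylalanine, mt-Tf (chrM:1-68, plus), which borders mt-Rnr1, is printed as an example of their size. No comparison of tRNA genes was possible, and 15 of the 37 members passed the filter on low counts and were tested in every comparison.
mt-Tf: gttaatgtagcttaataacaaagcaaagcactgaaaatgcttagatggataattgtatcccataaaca

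The rRNA genes took by far the larger part of the mitochondrial counts. mt-Rnr1 (the small ribosomal subunit RNA, chrM:70-1024) and mt-Rnr2 (the large one, chrM:1094-2675) together held 13.4% to 31.2% of the counts of a library, with a median of 25.3%. The 13 protein genes held 1.78% to 4.75%, with a median of 3.40%. The ratio of rRNA counts to protein-gene counts lay between 6.29 and 9.68, with a median of 8.07, a smaller relative range than that of either share. The 95% Wilson interval of a single share was at most 0.0708 percentage points wide for the rRNA genes and 0.0329 for the protein genes, far less than the spread between libraries.

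By group, the share of the protein genes was 3.24% ± 0.320 (SD, n = 4) in control LT-HSC, with libraries at 3.47%, 2.97%, 3.57% and 2.96%, and 2.83% ± 0.524 (n = 3) in mutant LT-HSC, with libraries at 2.72%, 2.37% and 3.40%. The corresponding share in ST-HSC was 3.40% ± 0.142 (n = 3) in control libraries, at 3.25%, 3.54% and 3.41%, and 3.39% ± 0.985 (n = 4) in mutant libraries, at 2.81%, 4.75%, 3.44% and 2.55%. The ranges of the groups overlapped in both stem cell populations, and library 2 of mutant ST-HSC held the highest share of the series. In MPP3 it was 3.09% ± 1.24 (n = 3) in control libraries, at 3.15%, 1.82% and 4.30%, and 3.62% ± 0.473 (n = 4) in mutant libraries, at 4.26%, 3.59%, 3.14% and 3.47%. In MPP4 it was 3.12% ± 0.914 (n = 4) in control libraries, at 3.86%, 1.78%, 3.47% and 3.36%, and 3.41% ± 0.302 (n = 4) in mutant libraries, at 3.64%, 3.67%, 3.31% and 3.03%. The ranges overlapped here too, and library 2 of control MPP3 and library 2 of control MPP4 stood lowest of all 29.

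The same libraries were lowest for the rRNA genes, at 13.4% in control MPP3 and 16.1% in control MPP4, against 21.1% in the next library. The group means of the rRNA share were 27.0% ± 2.26 (control LT-HSC), 25.3% ± 3.74 (mutant LT-HSC), 26.0% ± 3.37 (control ST-HSC) and 26.0% ± 3.81 (mutant ST-HSC). For the progenitors they were 21.7% ± 7.30 (control MPP3), 25.7% ± 2.43 (mutant MPP3), 23.6% ± 5.15 (control MPP4) and 27.7% ± 3.78 (mutant MPP4). No population had mutant and control ranges that did not overlap. On the log2 scale the mutant mean over the control mean of the rRNA share was -0.10 for LT-HSC, 0.00 for ST-HSC, 0.25 for MPP3 and 0.23 for MPP4. That of the protein share was -0.20, -0.01, 0.23 and 0.13 in the same order. Leaving out single libraries moved the MPP3 values to between -0.01 and 0.44 (rRNA) and between -0.04 and 0.54 (protein), with the lower ends reached without library 2 of control MPP3 and the upper ends without library 3. The MPP4 values ran from 0.08 to 0.30 (rRNA) and from -0.06 to 0.25 (protein), from without library 2 to without library 1 of control MPP4. Those of LT-HSC ran from -0.19 to 0.02 (rRNA) and from -0.35 to -0.08 (protein), from without library 3 to without library 2 of mutant LT-HSC. Those of ST-HSC lay on both sides of 0, from -0.08 to 0.11 (rRNA, without library 3 and library 2 of the controls) and from -0.21 to 0.11 (protein, without library 2 and library 4 of the mutants).

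**Figure D1:**
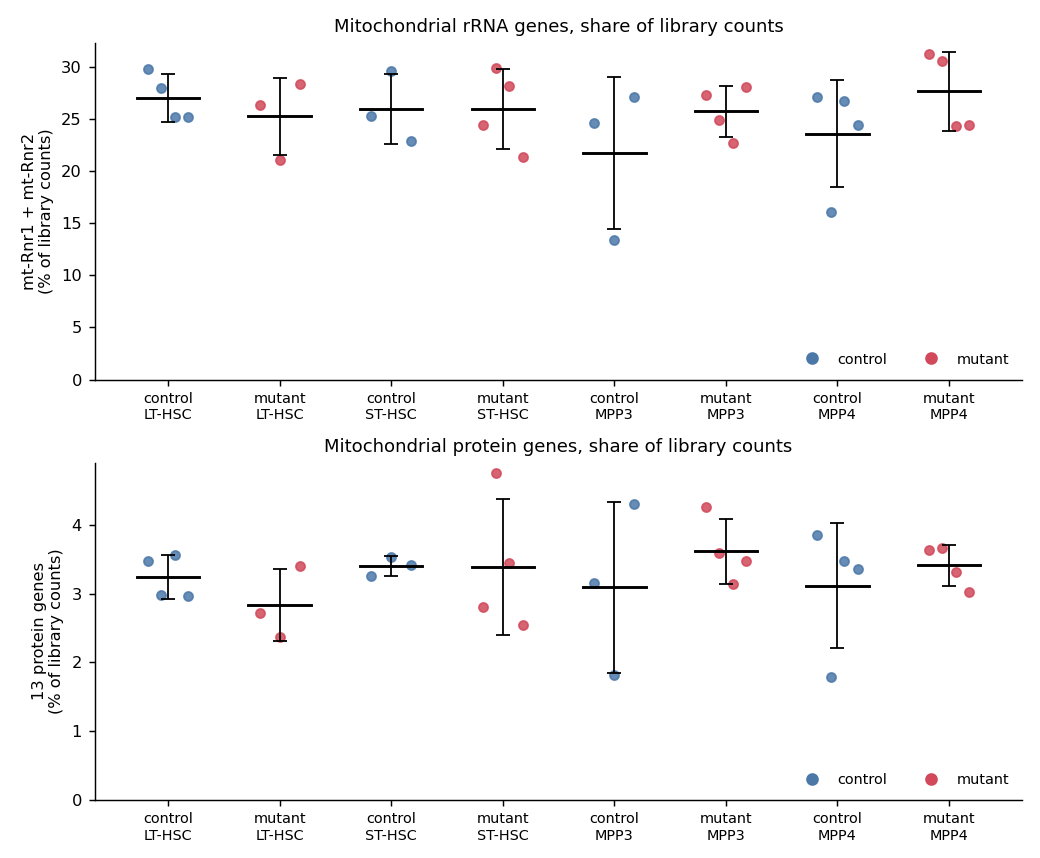
Share of library counts in percent for the 2 rRNA genes (top) and the 13 protein genes (bottom), with 1 point per library, a line at the group mean and bars of 1 SD, for the 8 groups on the x axis. The ranges of mutant and control libraries overlap in each population, and 1 control MPP3 and 1 control MPP4 library lie lowest in both panels.

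Levels of different genes were compared per length, as CPM per kilobase of transcript, because a longer gene yields more reads. Any difference between rRNA and protein-gene RNA in capture by the polyA step was not tested, so these levels describe the libraries. mt-Rnr2 had the highest median level (119059 CPM per kilobase), followed by mt-Rnr1 (74327), and the order of the pair held in 29 of 29 libraries with a median ratio of 1.49 (1.202 to 2.486). mt-Co1, the catalytic subunit of cytochrome oxidase, came next at 12491 and was below mt-Rnr1 in every library, by a median of 6.01 times (4.62 to 7.84). mt-Cytb followed at 2772, below mt-Co1 in 29 of 29 libraries by a median of 4.08 times (3.45 to 7.47). The step from mt-Co1 to the next protein gene was therefore larger than the spread between libraries.

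Below mt-Cytb lay a group of 5 genes whose order was not steady: mt-Co2 (a copper-bearing subunit of complex IV) at 1962 CPM per kilobase, mt-Nd4 at 1831, mt-Atp6 at 1728, mt-Co3 at 1709 and mt-Nd1 at 1633. mt-Nd4 exceeded mt-Atp6 in 14 of 29 libraries, and mt-Co3 exceeded mt-Nd1 in 15 of 29, so neither pair could be ordered. mt-Cytb exceeded mt-Co2 in 24 of 29. mt-Nd5 (a proton-pumping subunit of complex I) stood at 999, below mt-Nd1 in 28 of 29 libraries, and mt-Nd2 (another pumping subunit) at 320, below mt-Nd5 in 29 of 29 by a median of 3.19 times. The lowest levels were those of mt-Atp8 (249), mt-Nd4l (186), mt-Nd6 (144) and mt-Nd3 (114), where each exceeded the next in 22 to 25 of 29 libraries. These are also the shortest protein genes, at 204, 297, 519 and 348 bases. Any effect of short length on their counts was not tested, so their low place may not reflect less RNA. The value of mt-Nd4l leaves out the equal count of Gm10222, and its place would rise if that count were added. mt-Nd6, the only protein gene on the minus strand, was thus near the bottom of the order but above mt-Nd3 in 25 of 29 libraries.

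**Figure D2:**
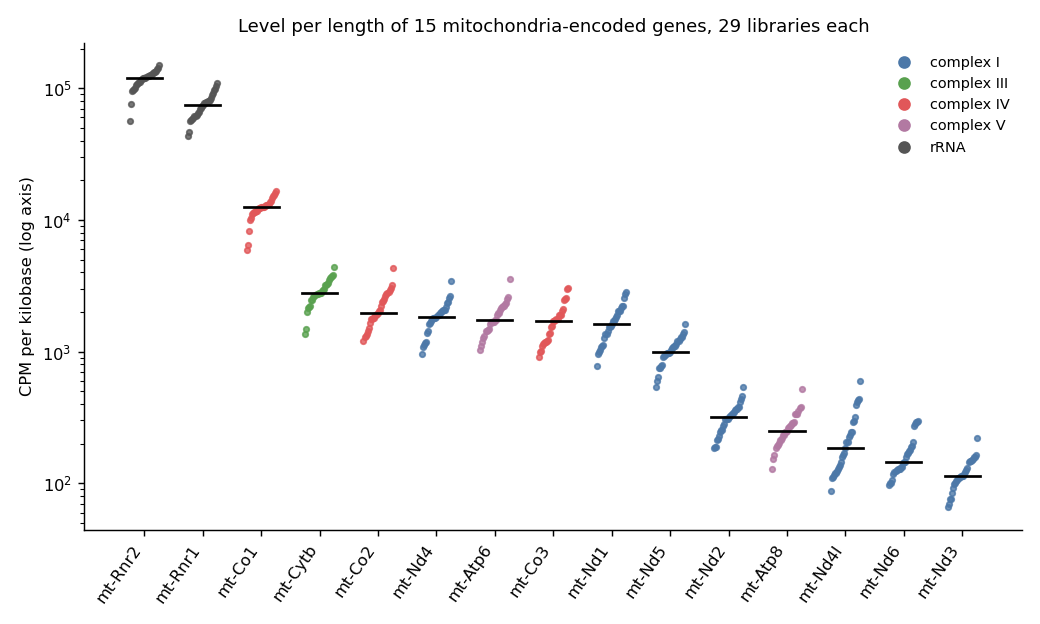
Level per length (CPM per kilobase, log axis) of the 15 members with counts, with 1 point per library in rising order within a gene and a bar at the median of 29 libraries. Both rRNA genes lie highest, mt-Co1 lies apart from the other protein genes, and mt-Co2, mt-Nd4, mt-Atp6, mt-Co3 and mt-Nd1 overlap.

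Within the protein genes, mt-Co1 alone took 50.4% to 72.3% of the counts (median 56.7%). mt-Cytb took 7.16% to 12.2% (median 10.05%), mt-Nd4 4.39% to 9.99% (8.02%), mt-Nd5 3.85% to 7.02% (5.85%) and mt-Nd1 2.67% to 7.02% (4.95%). The 7 complex I genes together held a median of 20.5% of the counts (11.8% to 22.7%) from 55.8% of the coding length. The 3 complex IV genes held 65.4% (61.5% to 78.7%) from 26.4% of the length. mt-Cytb held a median of 10.05% from 10.03% of the length, and the 2 complex V genes 4.07% (2.35% to 5.34%) from 7.76%.

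Composition varied most through a single library. Library 2 of control ST-HSC had the highest mt-Co1 share of the series, at 72.3%, and the lowest share of 10 of the 13 protein genes. The share of mt-Co1 in the other control ST-HSC libraries was 59.6% and 57.3%. Library 2 of control MPP3, which had few mitochondrial counts, had the highest share of 4 genes, among them mt-Co2 at 7.15% and mt-Nd3 at 0.277%.

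How steadily members kept their proportions was described by the SD of the log2 ratio of each pair over the 29 libraries, which share library and depth. Over the 105 pairs it ran from 0.151 to 0.797, with a median of 0.377. The steadiest pairs were mt-Nd4 with mt-Nd5 (0.151), mt-Atp8 with mt-Atp6 (0.155, overlapping genes), mt-Nd4 with mt-Cytb (0.172) and mt-Nd2 with mt-Atp6 (0.173). mt-Co1 was nearest to the rRNA genes, with 0.200 for mt-Rnr2 and 0.204 for mt-Rnr1, although mt-Rnr1 and mt-Rnr2 differed from each other by more (0.315). It was farther from its partners in complex IV, with 0.458 for mt-Co2 and 0.457 for mt-Co3. The steadiest pairs thus fell both within complexes and between them. The ratio of mt-Rnr2 to mt-Rnr1 counts lay between 1.99 and 4.12, with a median of 2.47. The least steady pair was mt-Rnr2 with mt-Nd4l (0.797). Adding the count of Gm10222, which equals that of mt-Nd4l in every library, would not change this SD.

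**Figure D3:**
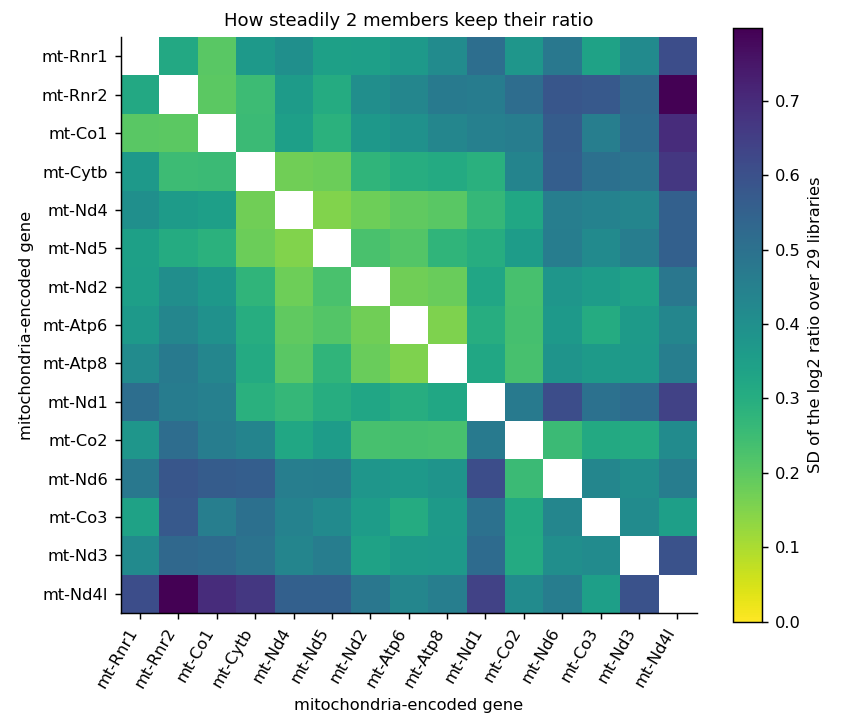
SD over 29 libraries of the log2 ratio of each pair of members (colour scale, darker is less steady). mt-Nd4, mt-Nd5 and mt-Cytb form a steady block, mt-Co1 is nearest to both rRNA genes, and the least steady pairs (0.639 to 0.797) are those of mt-Nd4l with mt-Nd1, mt-Cytb, mt-Co1 and mt-Rnr2.

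Single members differed between libraries by 3.22 times (mt-Rnr1) to 9.28 times (mt-Nd4l) from the lowest to the highest CPM. Library 2 of mutant ST-HSC had the highest CPM of 13 of the 15 members, and the highest of its own group for all 15. Library 2 of control MPP4 was lowest of its group for 14 of 15, library 2 of control MPP3 for 11 of 15, and library 3 of control MPP3 was highest of its group for 15 of 15. In these groups the spread was therefore carried by most members at once. In mutant MPP4 the highest library differed by member, with libraries 1, 2 and 3 highest for 3, 5 and 7 of 15. Library 2 of mutant ST-HSC had 14802 genes with counts and a TMM factor of 0.8279, and library 1 of mutant MPP3 had 14302 and 0.8403. No other library was lower on either, with a median of 16743 genes over the series. A low factor raises every CPM of a library, and its part in these levels was not tested.

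The comparison of mutant with control cells asks whether the Dnmt3a mutation goes with another mitochondrial RNA level. In LT-HSC, none of the 15 tested members passed edgeR's quasi-likelihood test with Benjamini-Hochberg adjustment (lowest adjusted p 0.689), beside 0% of all 13922 genes tested, and none had an unadjusted p under 0.05. DESeq2 also called none. All 13 protein genes had a lower fitted level in mutant cells, with a median log2 fold change of -0.34 (-0.50 to -0.23), beside a median of 0.00 over all genes tested (quartiles -0.32 and 0.26). The values of the complex I genes lay between -0.50 and -0.23 and those of complex IV between -0.47 and -0.23, while mt-Rnr1 was at -0.13 and mt-Rnr2 at -0.21. The groups overlapped for every member, while 7.22% of all genes tested had groups that did not overlap.

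The values of mt-Nd1 and mt-Atp8 were the farthest below 0 in LT-HSC. The level of mt-Nd1 was 1753, 1266, 1876 and 1250 CPM in the control LT-HSC libraries and 698, 912 and 1668 CPM in the mutant ones. The lowest 2 values were mutant, but the third mutant library lay among the controls, and the log2 fold change of -0.50 ± 0.281 (SE) had an adjusted p of 0.689 by edgeR's quasi-likelihood test with Benjamini-Hochberg adjustment. mt-Atp8 was at 65.8, 45.8, 66.3 and 39.8 CPM in control and 24.8, 41.4 and 49.98 CPM in mutant libraries, a log2 fold change of -0.50 ± 0.289. mt-Cytb was at 3471, 3249, 3660 and 3126 CPM against 2299, 2132 and 4073 CPM, where a mutant library was the highest of all. Markers of mature cells reached far higher levels in some control libraries, with ranges that overlapped. The summed level of 10 neutrophil genes was 52.8 to 12285 CPM in control and 62.3 to 449 CPM in mutant LT-HSC, and that of 8 erythroid genes 391 to 26938 CPM and 264 to 715 CPM. With 1 library left out in turn, 0 of the 13 protein genes were higher in mutant cells each time, and the median ran from -0.52 (without library 3 of mutant LT-HSC) to -0.16 (without library 1 of control LT-HSC). Without the 3 control libraries that had over 100 CPM of the neutrophil gene S100a8, which leaves a single control library, 9 of the 13 were higher and the median was 0.10. Within the prefixes of the column names, the protein-gene share was 0.177 percentage points higher in mutant LT-HSC with prefix P (1 library against 2), and the difference was -0.719 points with prefix Q (2 against 2).

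In ST-HSC, again none of the 15 members passed the test, with an adjusted p of 0.998 for each by edgeR's quasi-likelihood test with Benjamini-Hochberg adjustment, beside 0% of 13381 genes tested. None had an unadjusted p under 0.05, and DESeq2 called none. Fitted levels were higher in mutant cells for 12 of 13 protein genes, with a median log2 fold change of 0.50 (-0.11 to 0.82) beside 0.01 over all genes, and no member had groups that did not overlap, beside 4.9% of all genes. The complex I genes lay between 0.24 and 0.82, mt-Cytb was at 0.39, mt-Atp8 at 0.76 and mt-Atp6 at 0.54, and the rRNA genes were near 0 (0.16 for mt-Rnr1 and 0.05 for mt-Rnr2). The member with the highest fold change was mt-Nd3, a small membrane subunit of complex I, at 27.5, 25.6 and 35.5 CPM in control and 39.2, 93.2, 52.9 and 23.3 CPM in mutant libraries (log2 fold change 0.82 ± 0.427). Library 2 was far above the others and library 4 was the lowest of all 7. mt-Co1, at 18056, 24918 and 19067 CPM in control libraries and 13652, 28949, 20149 and 14093 CPM in mutant libraries, was the protein gene with a negative value (-0.11 ± 0.281). Without library 2 of mutant ST-HSC, 6 of 13 protein genes were higher and the median was -0.00, so the direction in ST-HSC rests on that library. With any of the others left out, the median ran from 0.33 (without library 2 of control ST-HSC) to 0.78 (without library 3), with 11 to 13 higher.

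In MPP3, none of the 15 members passed (adjusted p of 1.000 for each by edgeR's quasi-likelihood test with Benjamini-Hochberg adjustment, beside 0.00737% of 13572 genes tested), none had an unadjusted p under 0.05 and DESeq2 called none. The median log2 fold change of the protein genes was 0.32 (-0.03 to 0.50), with 12 of 13 higher in mutant cells, beside 0.01 over all genes. No member had groups that did not overlap, beside 4.5% of all genes. mt-Cytb was at 0.41, the complex IV genes between 0.11 and 0.30, mt-Atp8 at 0.34 and mt-Atp6 at 0.37. mt-Nd1 again had the value farthest from 0 among the protein genes. It was at 1501, 922 and 2895 CPM in control and 3239, 1952, 2120 and 2765 CPM in mutant MPP3, a log2 fold change of 0.50 ± 0.332. The 3 control libraries spanned more than the 4 mutant ones, and library 3 of the controls lay above 3 of the mutant libraries. mt-Rnr2 was at 168559, 79240 and 200534 CPM in control and 228536, 174108, 159382 and 238950 CPM in mutant libraries (0.42 ± 0.306), where libraries 1 and 3 of the controls lay within the mutant range and library 2 lay far below. With single libraries left out, the median of the protein genes moved between 0.11 (without library 2 of control MPP3) and 0.83 (without library 3), and 9 to 13 of them were higher. It was 0.17 without library 1 of mutant MPP3.

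In MPP4, none of the 15 members passed (adjusted p of 0.999 for each by edgeR's quasi-likelihood test with Benjamini-Hochberg adjustment, beside 0% of 13108 genes tested), none had an unadjusted p under 0.05, and DESeq2 called none. The protein genes were divided, with 7 of 13 higher in mutant cells and a median log2 fold change of 0.02 (-0.24 to 0.31), and no member had groups that did not overlap, beside 2.39% of all genes. With library totals in place of TMM, 6 of 13 were higher. mt-Rnr1 was at 0.34 ± 0.261 and mt-Rnr2 at 0.28 ± 0.241, while both complex V genes were near 0 (-0.05 for mt-Atp8 and -0.04 for mt-Atp6). The most positive was mt-Co1, at 21712, 8980, 20140 and 18580 CPM in control and 26104, 23263, 19627 and 16806 CPM in mutant libraries (0.31 ± 0.248). The control library at 8980 CPM was the outlying value, and the others overlapped with the mutant libraries. Leaving out single libraries moved the median between -0.21 (without library 2 of control MPP4) and 0.19 (without library 1 or 4), and the number of higher protein genes between 3 and 12. The median was -0.11 without library 3 of mutant MPP4.

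**Figure D4:**
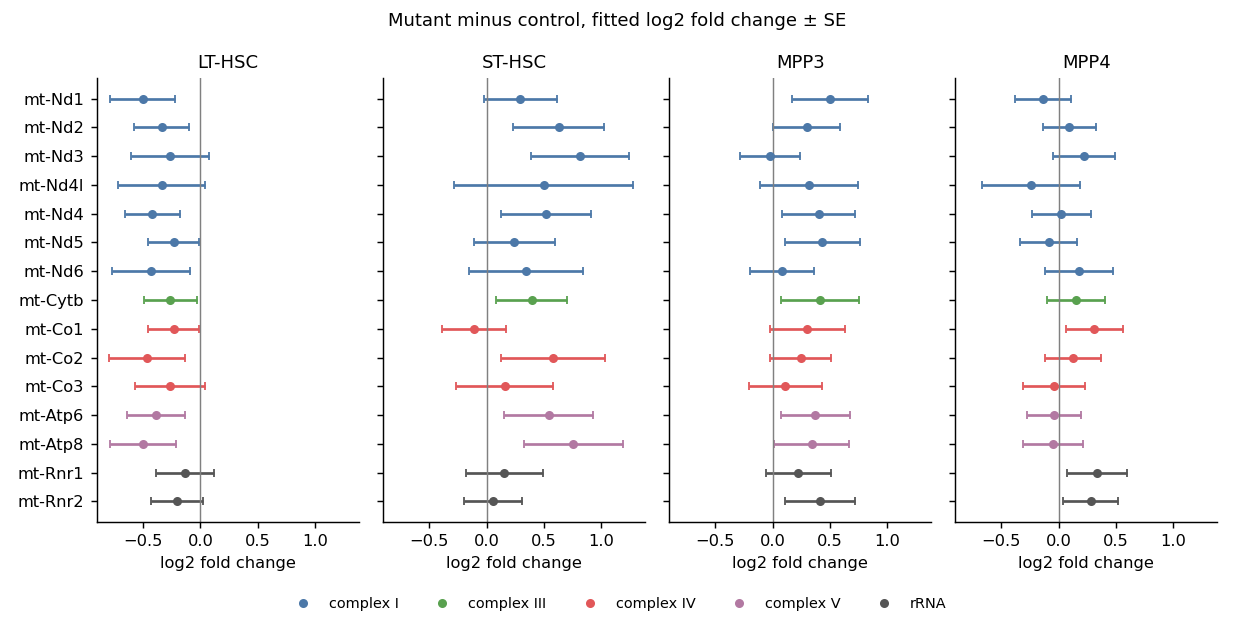
Fitted log2 fold change of mutant over control (x axis) with bars of 1 SE for the 15 tested members in each population, coloured by complex. The protein genes lie below 0 in LT-HSC, mostly above 0 in ST-HSC and MPP3 and around 0 in MPP4, and no member passed the test in any panel.

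Over all 29 libraries, the mean of the 4 mutant effects was between -0.01 (mt-Co3) and 0.19 (mt-Nd3) on the log2 scale for the protein genes, 12 of which were positive, with a median of 0.12 beside 0.00 over all genes. With single libraries left out, 7 to 13 were positive, and the median ran from 0.00 (7 positive, without library 2 of mutant ST-HSC) to 0.24 (without library 3 of control MPP3). With library totals in place of TMM, 10 were positive with a median of 0.07, and without the libraries over 100 CPM of S100a8 all 13 were, with a median of 0.25. None of the 15 members passed (lowest adjusted p 0.892 by edgeR's quasi-likelihood test with Benjamini-Hochberg adjustment, beside 0.0189% of 15915 genes), none had an unadjusted p under 0.05, and DESeq2 called none. The SE of these means was 0.126 (mt-Rnr2) to 0.326 (mt-Nd4l). The test of whether the mutant effect differed between the 4 populations passed for none of the 15 members either (lowest adjusted p 0.962, 0% of all genes called, no member with an unadjusted p under 0.05, and none by DESeq2). The negative values of LT-HSC and the mostly positive ones of ST-HSC and MPP3 were therefore not shown to differ.

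Among the 4 control populations, no member differed by the same test over all of them (lowest adjusted p 0.684, mt-Nd3), beside 5.72% of 14937 genes, and none had an unadjusted p under 0.05 or was called by DESeq2. None of the pairs of control populations gave a called member either, with none by DESeq2 and none with an unadjusted p under 0.05. The share of all genes called was 0.174% for ST-HSC against LT-HSC, 1.46% for MPP3 and 4.2% for MPP4 against LT-HSC, 2.02% for MPP3 and 1.66% for MPP4 against ST-HSC, and 1.14% for MPP4 against MPP3. These pairs share libraries.

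Ranges that did not overlap were found for 2 members among those pairs. mt-Cytb was at 2955, 2469 and 2737 CPM in control ST-HSC, below the 3126 to 3660 CPM of control LT-HSC (log2 difference -0.30 ± 0.330, where 7.59% of all genes had such ranges). mt-Nd3 was at 36.6, 44.6 and 56.4 CPM in control MPP3, above the 25.6 to 35.5 CPM of control ST-HSC (0.63 ± 0.371, where 19.4% of all genes had such ranges). The pairs with no such member had 12.9% (MPP3 against LT-HSC), 9.77% (MPP4 against LT-HSC), 12% (MPP4 against ST-HSC) and 12.6% (MPP4 against MPP3) of all genes. The count of 1 member in 15 was thus not above the background in either comparison.

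A member passed the test in 1 comparison, between mutant populations. mt-Nd1, which forms part of the membrane arm of complex I beside the quinone site, was 2519 ± 594 CPM (SD, n = 4) in mutant MPP3 and 1093 ± 509 CPM (n = 3) in mutant LT-HSC. All 4 MPP3 libraries (3239, 1952, 2120 and 2765 CPM) lay above all 3 LT-HSC libraries (698, 912 and 1668 CPM). The log2 difference was 1.18 ± 0.311 (SE) with an adjusted p of 0.0423 by edgeR's quasi-likelihood test with Benjamini-Hochberg adjustment, where 1.78% of 14766 genes were called higher in MPP3 and 3.09% in either direction. The ranges did not overlap for 7 of the 15 members, all higher in MPP3 (mt-Nd1, mt-Nd2, mt-Atp8, mt-Atp6, mt-Co3, mt-Nd3 and mt-Nd4l), beside 15.6% of all genes.

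All 13 protein genes had a higher fitted level in mutant MPP3 than in mutant LT-HSC, with a median log2 difference of 0.63 beside 0.00 over all genes, and 4 members had an unadjusted p under 0.05. Within prefix Q the mean CPM was higher in MPP3 for 13 of 13 protein genes (median log2 difference 0.99), and within prefix P, with a single LT-HSC library, for 10 of 13 (median 0.20). The exceptions with prefix P were mt-Nd5 (-0.10), mt-Cytb (-0.15) and mt-Nd6 (-0.32, where the LT-HSC library lay above both MPP3 libraries), and the rRNA gene mt-Rnr2 was at -0.12 there. mt-Co3 was at 2324, 1486, 1492 and 1541 CPM in MPP3 and at 848, 1136 and 854 CPM in LT-HSC, a difference of 0.83 ± 0.338 with an adjusted p of 0.241 by edgeR's quasi-likelihood test with Benjamini-Hochberg adjustment. The log2 difference was 0.80 ± 0.367 for mt-Atp8 and 0.73 ± 0.326 for mt-Atp6 (adjusted p 0.323 and 0.313 by the same test). The rRNA genes differed less, by 0.32 ± 0.276 (mt-Rnr1) and 0.15 ± 0.224 (mt-Rnr2), with ranges that overlapped. The ratio of rRNA to protein-gene counts was accordingly lower in mutant MPP3 (mean 7.16) than in mutant LT-HSC (mean 8.97), and these ranges did not overlap. Among control cells it was also lower in MPP3 (mean 7.16) than in LT-HSC (mean 8.39), with ranges that overlapped.

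The call for mt-Nd1 was near the threshold. It was kept under 7 of 10 other settings, with adjusted p between 0.00474 and 0.0868, and was lost without the filter on low counts (0.0868), without robust estimation of the spread (0.0508) and with all 29 libraries in the fit (0.0815). With 1 of the 15 mutant libraries left out in turn, the log2 difference ran from 0.94 to 1.62 and the call was kept 7 times. It was lost without library 1 or 2 of mutant LT-HSC (adjusted p 0.225 and 0.172), library 1 or 3 of mutant ST-HSC (0.0515 and 0.0533), library 1, 3 or 4 of mutant MPP3 (0.105, 0.0542 and 0.0756) or library 4 of mutant MPP4 (0.0571). Within the libraries of prefix P the level was 2442 CPM (n = 2) in MPP3 and 1668 CPM (n = 1) in LT-HSC, and within those of prefix Q it was 2596 CPM (n = 2) and 805 CPM (n = 2). The difference was thus positive in both, at 0.55 and 1.69 on the log2 scale.

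Markers of other cells moved with these groups. The summed level of 7 genes of antibody-secreting cells was 4589 to 38238 CPM in mutant MPP3 and 11.4 to 258 CPM in mutant LT-HSC, where 6 of the 7 had counts and Mzb1 was at 0 in all 3 libraries. Among them Ighm, the heavy chain of IgM, was at 3408 to 23625 CPM and 4.00 to 173 CPM. The summed level of 6 B cell genes was 425 to 635 CPM against 49.98 to 142 CPM. The 8 myeloid genes, used above as markers of MPP3 itself, summed to 4277 to 11203 CPM against 27.0 to 40.2 CPM, with Elane at 0 in mutant LT-HSC. The part of antibody-secreting cells, of B cells or of the myeloid character of MPP3 in the difference of mt-Nd1 was not tested.

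Across the 4 mutant populations together, mt-Nd1 had the smallest p of the members and did not pass (adjusted p 0.0742 by edgeR's quasi-likelihood test with Benjamini-Hochberg adjustment, beside 6.28% of 14766 genes). DESeq2 called it (adjusted p 0.0169), and edgeR did without library 3 of mutant LT-HSC (0.0183) or library 2 of mutant ST-HSC (0.0233). It was at 1466, 2496, 1531 and 940 CPM in mutant ST-HSC and at 1115, 1950, 1382 and 1392 CPM in mutant MPP4. Mutant MPP3 therefore had the highest mean and mutant LT-HSC the lowest, with ST-HSC (1608 ± 648 CPM) and MPP4 (1459 ± 351 CPM) between them and overlapping. The log2 difference of MPP3 over ST-HSC was 0.64 ± 0.280 (adjusted p 0.227) and MPP4 lay below MPP3 by a log2 difference of -0.77 ± 0.281 (adjusted p 0.240), both by edgeR's quasi-likelihood test with Benjamini-Hochberg adjustment. These comparisons share libraries, so their values are not independent. Among control cells mt-Nd1 was at 1536 ± 325 CPM (LT-HSC), 1309 ± 464 CPM (ST-HSC), 1773 ± 1014 CPM (MPP3) and 1611 ± 569 CPM (MPP4), with overlapping ranges.

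As a share of the protein-gene counts, which does not depend on the total of a library, mt-Nd1 was 6.40% ± 0.706 in mutant MPP3 (6.38%, 5.42%, 6.78% and 7.02%), 3.95% ± 1.15 in mutant LT-HSC (2.72%, 4.16% and 4.98%) and 4.16% ± 0.957 in mutant MPP4 (2.89%, 4.95%, 3.95% and 4.85%). In mutant ST-HSC it was 4.68% (4.21% to 5.86%). The MPP3 range lay above those of LT-HSC and MPP4 and overlapped with that of ST-HSC. In control MPP3 the share was 5.61% ± 0.598 (4.96%, 5.74% and 6.13%).

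**Figure D5:**
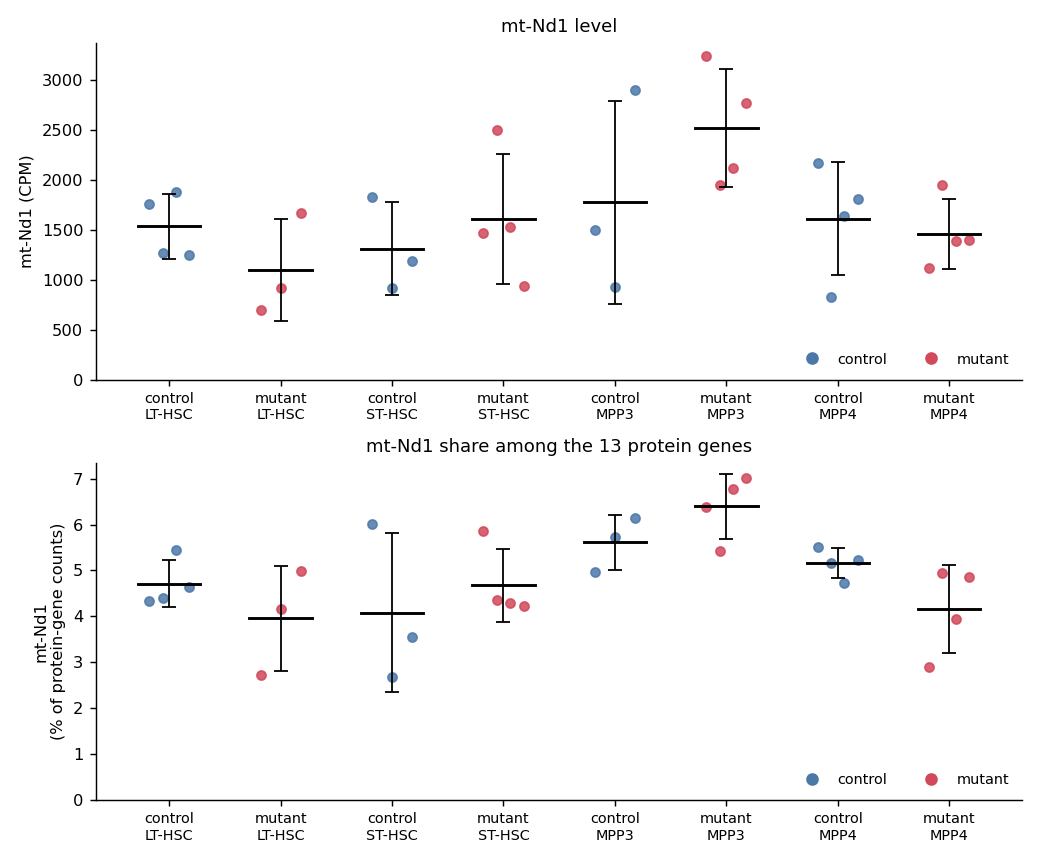
Level of mt-Nd1 in CPM (top) and its share among the counts of the 13 protein genes in percent (bottom), with 1 point per library, a line at the group mean and bars of 1 SD. The 4 mutant MPP3 libraries lie above the 3 mutant LT-HSC libraries in both panels, and the control groups overlap.

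The remaining pairs of mutant populations gave no called member. Against mutant LT-HSC, all 13 protein genes were higher in mutant ST-HSC (median 0.56, lowest adjusted p 0.579, beside 0.298% of genes called) and in mutant MPP4 (median 0.37, lowest adjusted p 0.669, beside 2.17%), by edgeR's quasi-likelihood test with Benjamini-Hochberg adjustment. Both use the same 3 LT-HSC libraries as the MPP3 comparison. Without library 2 of mutant ST-HSC the first became 9 of 13 with a median of 0.19. The second had a median of 0.17 without library 1 of mutant LT-HSC, and 11 of 13 with a median of 0.26 without library 3 of mutant MPP4. With library totals in place of TMM its median was 0.24. In the ST-HSC comparison mt-Atp8 (0.83 ± 0.367) and mt-Atp6 (0.72 ± 0.326) had an unadjusted p under 0.05, and no member did in the MPP4 comparison. MPP4 against ST-HSC gave 1 of 13 protein genes higher, with a median of -0.21, and this count turned to 13, with a median of 0.22, without library 2 of mutant ST-HSC. The genes called made up 2.33% of all genes there, 4.4% for MPP3 against ST-HSC and 1.37% for MPP4 against MPP3. In each of these pairs DESeq2 called no member.

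The nuclear partners of these genes were taken from lists of the respiratory complexes and of the machinery of mitochondrial RNA, which were chosen with earlier results of these data known. Between mutant and control cells no gene passed the test in any of the 4 populations or in their mean, for any of 10 lists: nuclear subunits of complex I (36 tested), III (9), IV (12) and V (16 of 17), complex II (4), assembly factors of complex IV (17 of 18), transcription and maintenance of mitochondrial DNA, RNA processing, translation and biogenesis regulators. In ST-HSC the median log2 fold change was 0.42 for complex I (29 of 36 higher in mutant cells), 0.34 for complex III (9 of 9), 0.73 for complex IV (12 of 12) and 0.33 for complex V (15 of 16), beside 0.01 over all genes. These ST-HSC medians include library 2 of mutant ST-HSC, on which the direction of the mitochondria-encoded genes rested. They were not recomputed without it. In LT-HSC the medians were -0.09, -0.12, -0.11 and 0.01. Cox5b, a nuclear subunit of complex IV, had the smallest p of the complex IV list in ST-HSC (1.18 ± 0.369) and in the mean over populations (0.51 ± 0.173), with adjusted p of 0.998 and 0.394 by edgeR's quasi-likelihood test with Benjamini-Hochberg adjustment. Tfam, which packages mitochondrial DNA and starts its transcription, was at 16.7, 19.5, 17.01 and 21.6 CPM in control LT-HSC and 85.4, 23.9 and 16.6 CPM in mutant LT-HSC (1.16 ± 0.476, adjusted p 0.547 by the same test), where a single mutant library stood apart. Polg2, the accessory subunit of the mitochondrial DNA polymerase, had a value of -0.53 ± 0.227 there (adjusted p 0.571 by the same test).

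Between populations, 4 genes of these lists passed, of 190 tested. Each of the 6 pairs of populations in which they passed had 1 called gene, so the share of the list genes called was below that of all genes in each pair (1.37% to 4.4%). Cox5a, a nuclear subunit of complex IV, rose in control MPP3 (39.4, 73.3 and 53.3 CPM) over control LT-HSC (30.9, 19.2, 25.2 and 15.8 CPM, log2 difference 1.29 ± 0.289, adjusted p 0.0269) and over control ST-HSC (15.4, 19.2 and 24.2 CPM, 1.49 ± 0.317, adjusted p 0.0195), by edgeR's quasi-likelihood test with Benjamini-Hochberg adjustment. No range overlapped. The first call was lost without library 2, 3 or 4 of control LT-HSC (adjusted p 0.0991, 0.0575 and 0.0703) or library 2 or 3 of control MPP3 (0.188 and 0.0964), without the libraries over 100 CPM of S100a8 (0.132), with all 29 libraries in the fit (0.0914) and with a replicate block by the number in the titles (0.0729) or in the descriptions (0.0656). The second was lost without library 1 or 2 of control ST-HSC (0.0547 and 0.0579) or library 2 or 3 of control MPP3 (0.0916 and 0.0631), with all 29 libraries (0.0513) and with the block by description (0.0509). Myc, a transcription factor that drives mitochondrial biogenesis among other programmes, rose in control MPP4 over control LT-HSC (0.93 ± 0.231, adjusted p 0.0233 by the same test). That call was lost without library 1 or 2 of control LT-HSC (0.0643 and 0.0963), library 4 of control MPP4 (0.117) or the libraries over 100 CPM of S100a8 (0.559).

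In mutant cells, Rexo2, an exonuclease that degrades short RNA in mitochondria, was at 131, 109, 78.8 and 141 CPM in MPP3 and 66.6, 49.1 and 50.9 CPM in LT-HSC, and it rose by 1.03 ± 0.266 (adjusted p 0.0389 by edgeR's quasi-likelihood test with Benjamini-Hochberg adjustment). The ranges did not overlap. The call was lost without any of the 3 LT-HSC libraries (0.0757, 0.155 and 0.184), without library 1, 2 or 4 of mutant MPP3 (0.0773, 0.0610 and 0.0895), with library totals in place of TMM (0.0808) and with the block by title (0.0672). Rexo2 fell from MPP3 to MPP4 (62.4, 50.3, 47.8 and 41.6 CPM), with a log2 difference of -1.17 ± 0.243 (adjusted p 0.0148 by the same test), a call lost without library 4 of MPP3 (0.0501) or library 4 of MPP4 (0.0690). Hsd17b10, a subunit of the enzyme that trims the front end of mitochondrial tRNAs, fell in mutant MPP3 (5.68, 26.5, 24.8 and 21.8 CPM) against mutant ST-HSC (41.8, 56.9, 47.5 and 41.3 CPM), with a log2 difference of -1.26 ± 0.352 (adjusted p 0.0461 by the same test). Its call was kept when library 1 or 2 of mutant MPP3 was left out and lost when any of the other 13 mutant libraries was left out (adjusted p up to 0.106), with library totals in place of TMM (0.0533), with the prefix as a term (0.0523) or with the block by description (0.0547). The nuclear subunits of the complexes had medians above 0 in mutant MPP3 against mutant LT-HSC, at 0.37 for complex I (31 of 36 higher), 0.46 for complex III (8 of 9), 0.58 for complex IV (11 of 12) and 0.43 for complex V (15 of 16), and none of them passed the test.

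Some proportions among the members differed between the prefixes of the column names in the same direction in most groups. They are the most one-sided of many measures compared, and each group holds 1 or 2 libraries per prefix. The share of mt-Co3 among the protein genes was lower with prefix P in 8 of 8 groups, with differences of -2.70 to -0.0071 percentage points. Its ranges overlapped in control LT-HSC, mutant ST-HSC, mutant MPP3 and both MPP4 groups. The share of mt-Nd4l was lower in 7 of 8 groups, and the ratio of mt-Rnr2 to mt-Rnr1 was higher in 7 of 8. That of mt-Co1 among the protein genes was higher with prefix P in 4 of 8. A fit of all libraries with group and prefix as terms called none of the 15 members (lowest adjusted p 0.810 by edgeR's quasi-likelihood test with Benjamini-Hochberg adjustment, beside 0% of 15915 genes), and none had an unadjusted p under 0.05. Within prefixes, the mutant minus control difference of the protein-gene share had opposite signs in 3 of the populations: it was 0.177 and -0.719 percentage points in LT-HSC, 0.387 and -0.418 in ST-HSC and 0.832 and -0.245 in MPP4 (P and Q), while it was 0.155 and 0.865 in MPP3.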

How the data were processed

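PolyA RNA of sorted mouse bone marrow populations was sequenced in 29 libraries. The deposited table holds 1 expected count per gene and library, made by the authors before deposit and already given as whole numbers. The submitters' processing notes name the build GRCm38 and edgeR 3.5.3, and also SAMtools 0.1.18, RSEM 1.2.12 and the aligner Bowtie2 2.2.0, without their order, and neither the annotation release nor the strand setting is stated in the sources used here. RSEM is known to divide reads between similar sequences, which bears on members with nuclear copies. Symbols, lengths and sequences came from GENCODE vM21 (GRCm38), which matched 37607 of the identifiers and left 1317 unmatched. Nuclear copies were sought with BLAST+ 2.17.0. No protein sequences were used.

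The members and the gene lists were chosen with earlier results of these data known. Groups came from the sample titles and descriptions. The study's design text counts 3 mutant MPP3 samples while 4 are listed, and all 4 were used. Shares were computed from counts, with 95% Wilson intervals that cover counting error only. Tests across genes used edgeR 4.0.16 in R 4.3.3, with TMM factors, its filter on low counts (minimum count 10, minimum total 15), the quasi-likelihood test and Benjamini-Hochberg adjustment over all genes tested, at a threshold of 0.05. Robust estimation of the spread was chosen after the files had been seen. Each mutant against control comparison was fitted on its own population, the control and the mutant populations in a fit each, and the mean and the difference of the mutant effects over all libraries. SE is the log2 fold change divided by the square root of F. CPM printed per library used TMM factors over all 29 libraries. The scripts were tested on simulated data. Named genes are all protein and rRNA members, and of each nuclear list those past the threshold or with the smallest p. Alternatives were DESeq2 1.42.0, limma 3.58.1 (voom), library totals, no filter, other sets of libraries, replicate blocks and each library left out in turn, and, added after the data were seen, no robust estimation and the prefix of the column names as a term and as a comparison.

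No label says that a number marks a shared animal or batch. Correlations of deviations from group means were -0.175 to 0.0915 over 13 mutant and control pairs with the same title number. Between populations of a genotype they were -0.161 to 0.175 over 40 pairs by title number (3 over 0.1) and -0.152 to 0.175 over 39 pairs by description number (6 over 0.1). Pairing needed every pair over 0.1, so the main fits have no block. So strict a rule cannot show that the libraries were unpaired. Each description number occurs with a single genotype and does not recur within a population. The consensus correlation of limma voom by description number was -0.000527. No replicates differed by as little as sampling noise.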

Additional observations from a re-analysis of the deposited data

Results flagged for a closer look

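Within groups of 4 libraries, 13 of 160 values examined had a library whose gap to the nearest other library exceeded the 95% critical value of Dixon's test for its group. Chance gives about 1 in 20 groups, or 8.0 of these 160. No explanation was tested.

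Library 1 of mutant MPP3 stood above the rest of its group in CPM for 4 members, with mt-Nd2 at 564 (others 346 to 381), mt-Co3 at 2324 (1486 to 1541), mt-Nd4l at 152 (62.8 to 73.5) and mt-Nd6 at 127 (68.4 to 75.7). Library 2 of control MPP4 was low for mt-Nd5, at 880 CPM (others 2179 to 2428). Library 2 of mutant MPP4 was high for mt-Cytb, at 4569 CPM (others 2972 to 3174).

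As a percentage of protein-gene counts, mt-Nd1 was 5.86% in library 1 of mutant ST-HSC (others 4.21% to 4.35%) and mt-Cytb 10.5% in library 4 of mutant MPP3 (10.2% to 10.3%). The share of mt-Nd4l was 0.364% in library 4 of control MPP4 (0.145% to 0.173%) and 0.263% in library 3 of mutant MPP4 (0.118% to 0.132%), where mt-Nd6 was also high at 0.455% (0.174% to 0.184%). mt-Nd4 was low in library 1 of mutant MPP4, at 5.23% (7.83% to 8.21%). The ratio of mt-Rnr2 to mt-Rnr1 counts was 3.01 in library 4 of mutant MPP3 (others 2.28 to 2.39).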

How the results depend on the processing

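The number of members called was recomputed under up to 12 settings and with each library left out. Of the counts, 198 under other settings and 280 with a library left out were equal to the main count, and 7 and 10 moved, all between 0 and 1. For any difference among mutant populations the count was 1 in place of 0 with DESeq2, with the prefix as a term and with a replicate block by the number in the description. For mutant MPP3 against mutant LT-HSC it was 0 in place of 1 without the filter on low counts, without robust estimation and with all 29 libraries in the fit. The comparison of prefixes gave 1 in place of 0 without the filter (mt-Rnr2, adjusted p 0.0332 by edgeR). With libraries left out, both mutant results ranged from 0 to 1. The member was mt-Nd1 in both. The cause was not tested.

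The replicate block by the number in the titles left the count of called members as it was in every comparison (1 for mutant MPP3 against mutant LT-HSC, 0 elsewhere). Under a block by either number, Cox5a in control MPP3 against control LT-HSC was no longer past the threshold (adjusted p 0.0729 by title and 0.0656 by description), nor was Rexo2 in mutant MPP3 against mutant LT-HSC by title (0.0672), and by description Cox5a against control ST-HSC (0.0509) and Hsd17b10 (0.0547). Library totals in place of TMM moved the median of all genes by up to 0.159 (log2), the other settings by up to 0.0877. With 3 to 4 libraries a group, the spread between libraries and not the depth limits these comparisons. The tRNA genes cannot be judged from these libraries.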
